A study of Mus musculus with 2 samples.

Results

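The genes described here are 3 chains of complement C1q (C1qa, C1qb and C1qc), the central complement component C3, and 3 C1q-like genes (C1ql1, C1ql2 and C1ql3), chosen by name as 7 of the 30223 genes in the table. They were followed across the cell classes of the mouse hippocampus. Single cells came from mice homozygous for the knock-in allele Pigv341E and from wild-type control mice, both of strain C57Bl.6/J. Pigv adds a mannose during the assembly of glycosylphosphatidylinositol (GPI) anchors, which hold many proteins at the cell surface. For each genotype, cells of 8 hippocampi from 4 mice were pooled into 1 droplet library, and the labels give neither the age nor the sex of the mice. The labels name no Cre line or tissue-specific promoter.

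With 1 library per genotype there is no replicate, so no test was made and no p-value or standard deviation is given. Genotype and library cannot be told apart in any comparison below. Pooling also means that the spread between mice is unknown.

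C1q is the recognition molecule of the classical complement pathway. Its A, B and C chains, encoded by C1qa, C1qb and C1qc, assemble through collagen-like stems into a bouquet with globular heads, and in the brain microglia are its main source. C1q bound to a surface starts a protease cascade that cleaves C3, whose fragments tag the surface for uptake through complement receptors, a route known for the removal of synapses during development. The C1q-like proteins carry the same kind of globular domain but do not start the cascade: they are secreted, chiefly by neurons, and act at synapses through adhesion G protein-coupled receptors of the Adgrb (BAI) family, kainate receptors and neurexins.

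The 3 C1q chain genes lie side by side on the minus strand of chromosome 4 (GENCODE M21, GRCm38), within 18675 bases from 136880129 to 136898803. C1qb is at 136880129 to 136886187, C1qc at 136889804 to 136893065 and C1qa at 136895917 to 136898803. C3 is on chromosome 17 (57203970 to 57228136, minus strand). The C1q-like genes are scattered: C1ql1 is on chromosome 11 (102939264 to 102946688, minus), C1ql2 on chromosome 1 (120340582 to 120343174, plus) and C1ql3 on chromosome 2 (13003457 to 13011806, minus). C1ql1 overlaps the antisense gene Gm26668, and C1ql3 overlaps the antisense genes Gm37824 and Gm37811. Whether the authors' counting used strand is not given in the sources used here, so reads of these partners may not have been told apart.

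RefSeq promoter sequences (GRCm38.p6) were matched for 5 of the 7 genes by symbol. Those of C1qb and C1qc are shown because these neighbours had a similar pattern across clusters (Pearson r = 0.965 in the wild-type library against 0.993 in the knock-in one). C1qa had no match. That of C1ql2 is shown as the C1q-like gene with the highest level among dentate granule cells. Capitals mark GAGGAA or its other strand TTCCTC, a core to which the myeloid factor PU.1 (encoded by Spi1) can bind, and CATCTG, the other strand of the E-box CAGATG. Only bases outside the GENCODE gene are printed.
C1qb (chr4:136886201-136886450, minus strand): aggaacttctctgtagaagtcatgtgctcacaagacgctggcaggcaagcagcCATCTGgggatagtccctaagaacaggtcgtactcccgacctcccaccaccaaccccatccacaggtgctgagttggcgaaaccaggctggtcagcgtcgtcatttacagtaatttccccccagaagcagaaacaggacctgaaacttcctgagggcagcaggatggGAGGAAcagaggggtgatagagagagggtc
C1qc (chr4:136893066-136893164, minus strand): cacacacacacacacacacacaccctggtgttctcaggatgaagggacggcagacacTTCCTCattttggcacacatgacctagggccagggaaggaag
C1ql2 (chr1:120340332-120340581, plus strand): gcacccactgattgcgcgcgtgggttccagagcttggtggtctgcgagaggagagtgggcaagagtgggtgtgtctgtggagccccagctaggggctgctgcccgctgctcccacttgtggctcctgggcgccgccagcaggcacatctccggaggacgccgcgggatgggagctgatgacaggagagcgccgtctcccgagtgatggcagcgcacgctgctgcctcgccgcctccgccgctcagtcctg
In the 250 bases before the RefSeq start, C1qb held GAGGAA at 30 bases and CATCTG at 197 bases upstream, and C1qc held TTCCTC at 193 bases upstream. The C1ql2 window held neither motif, and none of the 3 windows held TATAAA. The motifs were searched on both strands, and the matches did not overlap one another. Of 32851 promoter windows of the same length, 23.3% held GAGGAA, 14.4% held CAGATG and 12.4% held TATAAA on one or the other strand, so these matches are a description of the letters and not of binding.

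The table held 7094 wild-type and 8836 knock-in cells, and 28 cell barcodes occurred in both libraries. Its values are whole numbers corrected for depth, with totals per cell from 4846 to 14501 (median 8631 in the wild-type library against 9608 in the knock-in one), so the sequencing depth behind a value is unknown. The level of a gene in a class is its share of all the values recorded there, per 10000. Ratios are given as log2 of the knock-in level over the wild-type level, each with 0.1 per 10000 added, which pulls the ratios of weakly detected genes towards 0. Pigv had a level of 0.0886 in the wild-type library against 0.10 in the knock-in one over all cells, which does not check the genotype because the allele is an edit within the gene. Cells were clustered without the 7 genes and the other complement genes, and 11 named classes had at least 50 cells in each library. Class names rest on marker genes alone.

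Each C1q chain was concentrated in microglia-like cells, C1ql1 in oligodendrocyte precursor-like cells, and C1ql2 and C1ql3 in dentate granule neuron-like cells, in both libraries. C3 was nearly undetected. In the classes where each gene was highest, the knock-in level exceeded the wild-type level by 0.08 to 0.22 on the log2 scale for the 3 C1q chains and the 3 C1q-like genes. A gene was counted as different by size when the absolute log2 ratio was at least 1, the level at least 1 per 10000 in 1 library, and at least 10% of the cells of that library were above 0. Of 77 pairs of gene and class, 5 had levels high enough to be called, and 0 passed. Among all genes high enough, 0.373% passed in microglia-like, 0.301% in dentate granule neuron-like and 0.399% in oligodendrocyte precursor-like cells, so 0 of 5 is no departure from the background. In the other classes the share was 1.7% (Cajal-Retzius cell-like), 0.744% (astrocyte-like), 3.73% (choroid plexus-like), 0.677% (fibroblast-like), 1.18% (immature neuron-like), 0.619% (interneuron-like), 0.457% (mature oligodendrocyte-like) and 1.47% (pyramidal neuron-like), and over all cells it was 0.289%.

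**Figure D1:**
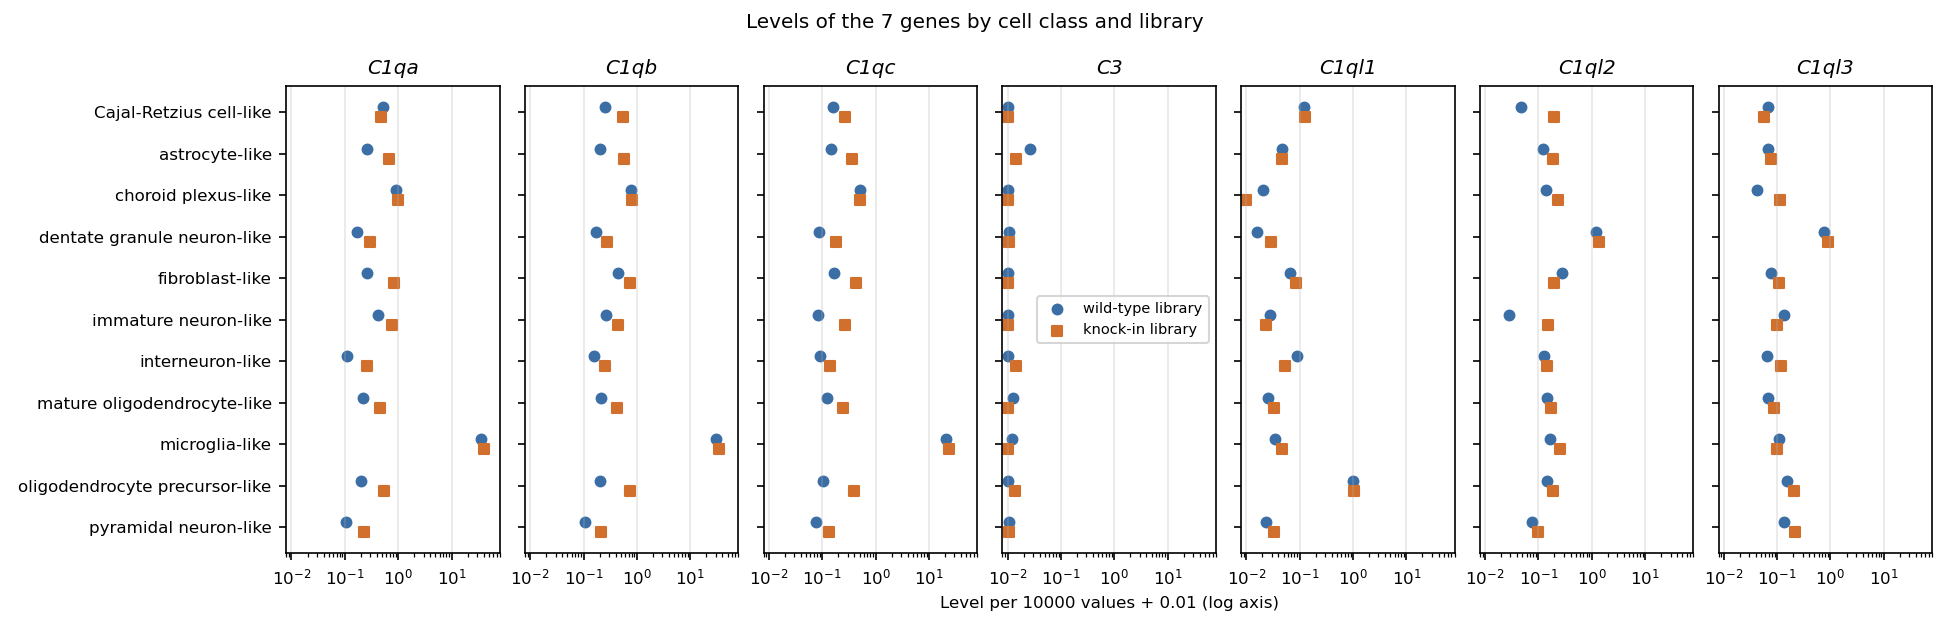
Level of each of the 7 genes (per 10000 values, with 0.01 added so that 0 can be drawn, log axis) in the 11 named classes, with circles for the wild-type library and squares for the knock-in library. The C1q chains are highest in microglia-like cells, C1ql1 in oligodendrocyte precursor-like cells, and C1ql2 and C1ql3 in dentate granule neuron-like cells, while C3 is near 0 everywhere.

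C1qa, which encodes the A chain, had a level of 35.7 per 10000 in the 663 wild-type microglia-like cells and 40.7 in the 859 knock-in cells (log2 ratio 0.19). The B chain gene C1qb had 30.8 and 34.2 (log2 ratio 0.15). The C chain gene C1qc had 21.0 and 24.0 (log2 ratio 0.19). All 3 were thus slightly higher in the knock-in library, and of the genes at 1 per 10000 or more in microglia-like cells 87.5%, 83.5% and 88.0% had a lower ratio than C1qa, C1qb and C1qc. The median ratio of those genes was -0.10, with a middle 50% from -0.23 to 0.08.

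The chains were seen in nearly every microglia-like cell. C1qa was above 0 in 97.6% of wild-type and 98.8% of knock-in cells, a difference of 1.25 ± 1.48 percentage points (95%, counting error between cells only). C1qb was above 0 in 96.1% and 97.0% (difference 0.895 ± 1.97), and C1qc in 94.1% and 96.9% (2.74 ± 2.24). All 3 chains together were above 0 in 89.9% of wild-type cells (exact Clopper-Pearson 95% interval 87.3 to 92.1%) and 94.6% of knock-in cells (92.9 to 96.1%). The difference for C1qc exceeds its counting error, but with every cell drawn down at random to 1000 values (thinning) it was 3.41 ± 4.49 points. The microglia-like cells of the knock-in library also had more detected genes, with a median of 2907 against 2500, and the part of this in the shares was not tested.

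Values per cell spread widely. The median C1qa value of a microglia-like cell was 25 in the wild-type library, with a middle 50% from 9 to 42.5 and a highest value of 125. In the knock-in library the median was 32, with a middle 50% from 12 to 52 and a highest value of 133. C1qb had medians of 23 and 24, and C1qc had medians of 15 and 19. The distributions of the libraries overlapped over most of their range for each chain.

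Part of this spread lay between the 3 microglia-like clusters. Cluster 28, led by P2ry12, Cx3cr1 and Tmem119, which mark homeostatic microglia, had C1qa at 49.6 in the wild-type library against 54.6 in the knock-in one, C1qb at 41.4 and 45.3, and C1qc at 29.9 and 32.4. Every one of its 256 wild-type and 398 knock-in cells had all 3 chains above 0. Cluster 18, led by Inpp5d, Runx1 and Itgam, had far lower levels: C1qa 11.3 and 16.3, C1qb 7.74 and 11.3, and C1qc 6.64 and 9.37. Its share of cells with all 3 chains was 73.4% in the wild-type (67.4 to 78.9%, 241 cells) and 87.3% in the knock-in library (83.4 to 90.6%, 347 cells). Ribosomal protein transcripts made up 0.40% and 0.576% of the values in cluster 18, against 3.21% and 3.19% in cluster 28. Cluster 6, led by Cst3, Tyrobp and ribosomal protein genes, had C1qa at 46.9 and 59.0, C1qb at 45.9 and 60.001, and C1qc at 26.0 and 34.1 (166 and 114 cells), with ribosomal protein transcripts at 4.99% and 6.26%. The knock-in level was higher for each chain in each of the 3 clusters, by 0.12 to 0.14 (log2 ratio) in cluster 28, by 0.49 to 0.54 in cluster 18 and by 0.33 to 0.39 in cluster 6.

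**Figure D2:**
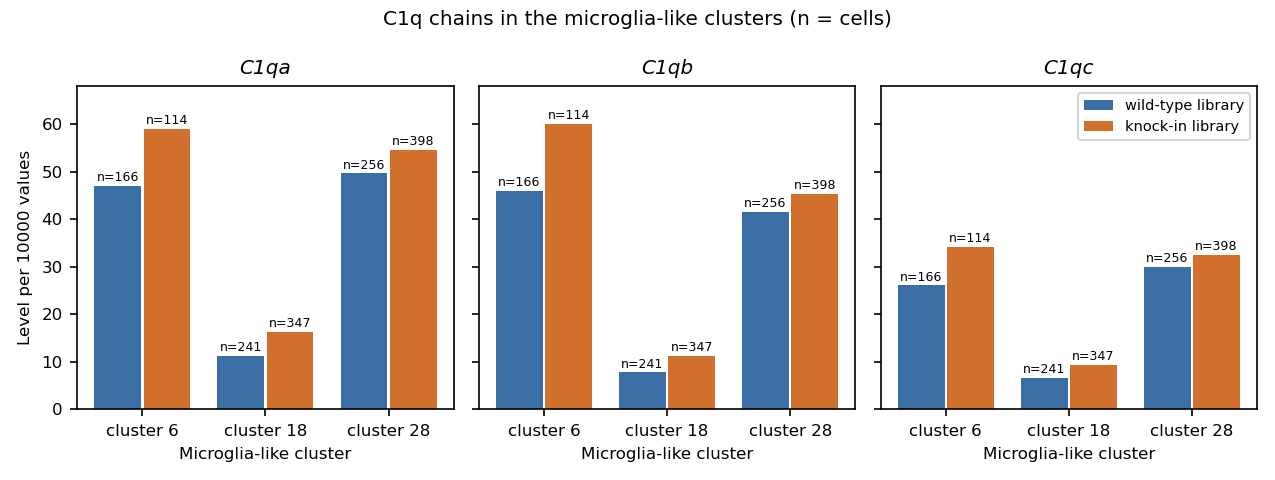
Level of C1qa, C1qb and C1qc (per 10000 values, bars from 0) in the 3 microglia-like clusters, blue for the wild-type and orange for the knock-in library, with the number of cells above each bar. Cluster 18 is lowest for every chain, and the knock-in bar is the taller in all 9 pairs.

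The make-up of the class differed as well: cluster 6 held 25.04% of wild-type and 13.3% of knock-in microglia-like cells, cluster 18 held 36.3% and 40.4%, and cluster 28 held 38.6% and 46.3%. Ribosomal content moved with the clusters, and its part in the C1q levels was not tested. Each of the 3 clusters was also given the same weight in both libraries, set by its number of cells in both together. The log2 ratio was then 0.24 for C1qa, 0.25 for C1qb and 0.24 for C1qc.

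The chains kept close proportions. The summed values of C1qb were 0.861 of those of C1qa in wild-type and 0.839 in knock-in microglia-like cells, and those of C1qc were 0.587 and 0.589. These are ratios of table values, not of molecules per length, so each is compared only with itself. The C1qb ratio varied with the cluster more than with the library: it was 0.979 and 1.02 in cluster 6, 0.686 and 0.693 in cluster 18, and 0.835 and 0.828 in cluster 28.

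The other genes that mark microglia differed little between the libraries, and mostly in the same direction. Of 20 microglial core genes, 19 had a ratio above 0 and 1 below 0 within microglia-like cells, and their median log2 ratio was 0.13 beside -0.004 for all genes at 0.5 per 10000 or more. P2ry12, a purinergic receptor, had 9.06 and 10.4, Tmem119 had 4.70 and 5.31, and Spi1 had 3.66 and 4.02. The C1q ratios of 0.15 to 0.19 lie inside the range of these core genes, from -0.01 for Cd68 to 0.35 for the Fc receptor gene Fcgr3. Of 16 genes of activated microglia, 3 reached 0.5 per 10000 in this class, 1 higher and 2 lower, with a median of -0.03.

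Across 33 clusters with at least 20 cells in each library, the genes whose log2(level + 0.1) followed C1qa most closely were C1qb (Pearson r = 0.983 in the wild-type library against 0.993 in the knock-in one), C1qc (0.981 and 0.990) and Ctss (0.979 and 0.983), among 9075 genes considered. C1qb was followed by C1qa, Trem2 (0.974 and 0.973) and Tyrobp (0.965 and 0.979). C1qc was followed by Ctss (0.986 and 0.986), C1qa and Trem2 (0.974 and 0.981). The points share library and depth correction, and the few microglia-like clusters stand far from the rest, so these values describe a common pattern and carry no p-value.

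Low C1q values were recorded in every other class. Over the 10 other named classes together, the summed level of the 3 chains was 0.460 in the wild-type library against 0.946 in the knock-in one (log2 ratio 0.90), which is 0.526% and 0.957% of the microglia-like level of the same library. The ratio was above 0 in 10 of 10 classes, from 0.08 in choroid plexus-like to 1.62 in oligodendrocyte precursor-like cells, with a median of 0.86, beside 0.18 in microglia-like cells. The size of such a contrast depends on the number added, which was varied for the median ratio of the 3 chains and not for their sum. With 0.1 added, the median of that ratio over the classes was 0.68, beside 0.19 in microglia-like cells. With 1 added, which exceeds most of these levels, it was 0.18, beside 0.18 in microglia-like cells. C1qa was at 0.254 and 0.669 in astrocyte-like cells (log2 ratio 1.12), at 0.190 and 0.544 in oligodendrocyte precursor-like cells (1.15) and at 0.249 and 0.825 in fibroblast-like cells (1.41). It was at 0.157 and 0.292 in dentate granule neuron-like, 0.0971 and 0.218 in pyramidal neuron-like and 0.207 and 0.438 in mature oligodendrocyte-like cells. Cajal-Retzius cell-like cells were the exception for C1qa, with 0.506 and 0.474.

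These levels are below the size rule's limit of 1 per 10000. With the limit lowered to 0.2 per 10000, 36 of the 77 pairs could be called and 7 passed: C1qa, C1qb and C1qc in oligodendrocyte precursor-like cells, C1qa and C1qb in astrocyte-like cells, C1qa in fibroblast-like cells and C1qc in immature neuron-like cells. Of these pairs, only C1qa in astrocyte-like and in fibroblast-like cells had a wild-type level that reached the limit. In wild-type astrocyte-like cells, however, the share of cells with C1qa above 0 was below the rule's minimum. That pair could thus be called through the knock-in library alone, which set its direction. The pairs other than these reached the limit through the knock-in library alone, so that their direction was set by the limit. At that limit 0.574% of all genes passed in oligodendrocyte precursor-like, 0.478% in astrocyte-like, 1.02% in fibroblast-like and 3.96% in immature neuron-like cells. The share was 0.318% in microglia-like, 0.226% in dentate granule neuron-like, 0.582% in pyramidal neuron-like, 0.349% in interneuron-like, 0.327% in mature oligodendrocyte-like, 2.97% in Cajal-Retzius cell-like and 3.41% in choroid plexus-like cells, and 0.199% over all cells.

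Other microglial transcripts outside microglia-like cells were also higher in the knock-in library. The summed level of the 20 core genes in the same 10 classes was 1.15 in the wild-type library against 1.66 in the knock-in one (log2 ratio 0.50), or 0.718% and 0.962% of the microglia-like level. It was higher in 8 of 10 classes, the exceptions being Cajal-Retzius cell-like (-0.14) and choroid plexus-like cells (-0.63). In the wild-type library 2 of the 20 core genes were at 0 in Cajal-Retzius cell-like cells, and 1 each in fibroblast-like and immature neuron-like cells, and all 20 were above 0 in each of the 10 classes of the knock-in library. Microglial RNA in droplets of other cells was not tested as a part of the C1q difference.

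A small number of cells carried much of the signal. Cells with a summed C1q value of 10 or more were 34 of 5603 in the wild-type (0.607%) and 114 of 6878 in the knock-in library (1.66%), and they held 27.9% and 36.0% of the C1q values in the 10 other classes. In the remaining cells the summed level was 0.334 and 0.616 (log2 ratio 0.72), higher in the knock-in library in 10 of 10 classes. Among oligodendrocyte precursor-like cells, 0 of 210 wild-type and 13 of 301 knock-in cells had such values, the 13 held 60.1% of the class's C1q values, and without them the log2 ratio of the summed level was 0.47 in place of 1.62. In astrocyte-like cells it was 0.69 in place of 1.30. Scrublet, run on these depth-corrected values, called 61 wild-type and 209 knock-in cells doublets. Without those cells, the median over the other classes of the 3 chains' median log2 ratio was 0.69, beside 0.68 with them. A median over classes says little of the few cells with high C1q values in any 1 class. The part of doublets in those values was not tested. The C1qa share of astrocyte-like cells above 0 was 8.91% and 20.3%, and 1.35% and 5.39% after thinning. Among dentate granule neuron-like cells the C1qa share was 8.71% and 18.3%, and 1.11% and 2.62% after thinning. Over the 10 classes, the summed values of C1qb were 0.969 of those of C1qa in the wild-type library against 0.930 in the knock-in one, inside the range over the 3 microglia-like clusters. Those of C1qc were 0.544 and 0.553, below the ranges over the clusters (0.555 to 0.602 and 0.577 to 0.594).

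**Figure D3:**
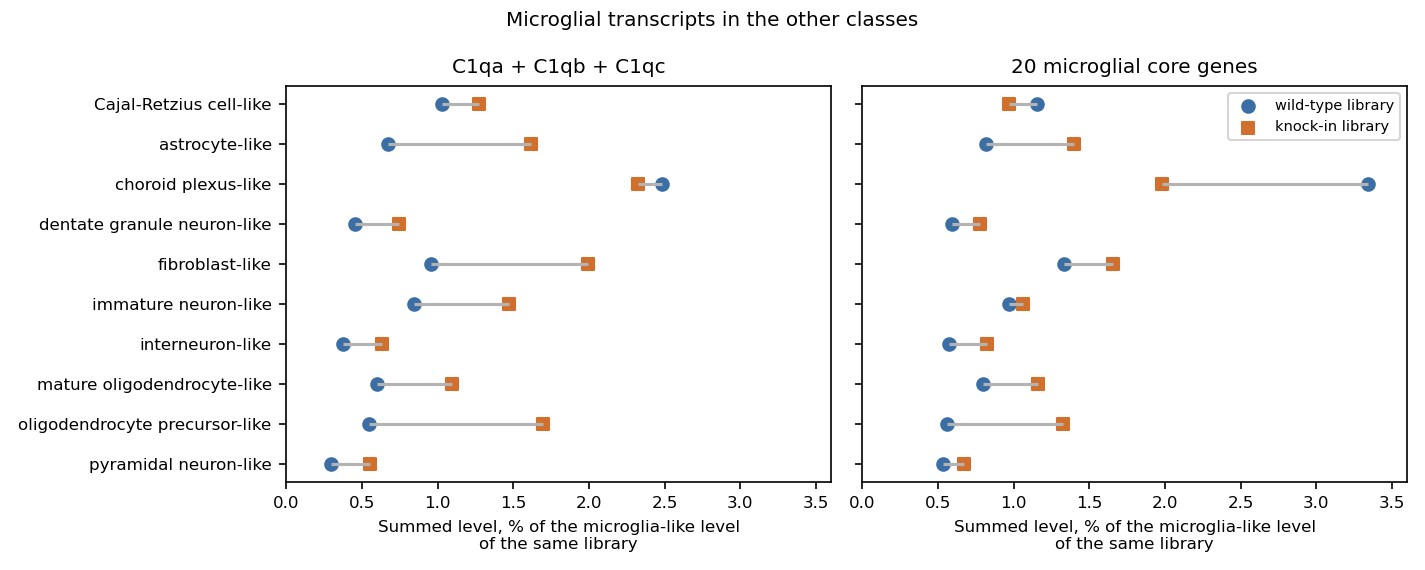
Summed level of the 3 C1q chains (left) and of 20 microglial core genes (right) in the 10 other classes, as a percent of the summed level in microglia-like cells of the same library. Squares (knock-in) lie to the right of circles (wild-type) for C1q in every class except choroid plexus-like, and for the core genes in every class except choroid plexus-like and Cajal-Retzius cell-like.

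An unnamed cluster of 152 cells (56 wild-type, 96 knock-in), whose leading genes were Lyz2, Mrc1, F13a1 and Stab1, genes of macrophages at brain borders, with markers of oligodendrocytes beside them, also held C1q. Its C1qa level was 11.3 and 14.3, its C1qb level 9.93 and 11.95, and its C1qc level 6.41 and 8.55.

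C3, the component on which all complement pathways converge, was above 0 in 10 of 7094 wild-type cells (0.141%, exact 95% interval 0.0676 to 0.259%) and in 11 of 8836 knock-in cells (0.124%, 0.0622 to 0.223%). Among astrocyte-like cells it was above 0 in 4 of 595 and 2 of 816. In microglia-like cells it was above 0 in 1 of 663 wild-type and 0 of 859 knock-in cells, and 0 of 859 allows a share of up to 0.349% of cells with a value above 0, which does not limit the share that express the gene. No fold is given for so few cells, and a difference in C3 was not detectable at this depth.

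C1ql1 encodes a C1q-like ligand of Adgrb3. Its level in oligodendrocyte precursor-like cells was 0.977 in 210 wild-type cells against 1.04 in 301 knock-in cells, a log2 ratio of 0.08. It was above 0 in 48.1% and 50.5% of these cells, a difference of 2.40 ± 9.05 points, and after thinning in 9.52% and 6.31% (-3.21 ± 5.12), so no difference was detectable. Outside this class it was above 0 in 1.32% and 2.27% of cells, with levels of 0.0210 and 0.0285. This class held 56.9% of all C1ql1 values in the wild-type library against 54.6% in the knock-in one. The next highest level was in Cajal-Retzius cell-like cells, with 0.113 and 0.116. Interneuron-like cells had 0.0809 and 0.0424. The genes with the most similar pattern over the 33 clusters were Car8 (r = 0.831 and 0.853), Neu4 (0.797 and 0.879) and S100a3 (0.793 and 0.867).

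C1ql2, which dentate granule cells are known to secrete at mossy fibre synapses, was at 1.18 per 10000 in the dentate granule neuron-like class of the wild-type library (1447 cells) and at 1.38 in that of the knock-in library (1449 cells; log2 ratio 0.22). The median over genes at 1 per 10000 or more in this class was -0.05, and 95.8% of them had a lower ratio. C1ql2 was above 0 in 62.2% of wild-type and 68.3% of knock-in cells, a difference of 6.13 ± 3.51 points, and after thinning in 11.5% and 12.8%, a difference of 1.30 ± 2.43 points. These cells had a median of 3920 and 4198 detected genes. In microglia-like cells, which should lack the gene, 7.69% and 12.6% were above 0, with levels of 0.155 and 0.243. Outside the dentate granule neuron-like class as a whole it was above 0 in 7.10% and 10.0% of cells, with levels of 0.123 and 0.154. Within the class, the difference in shares exceeded counting error between cells before thinning and not after it.

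C1ql3, the other C1q-like gene of this class, had a level of 0.75 in the wild-type library against 0.876 in the knock-in one (log2 ratio 0.20). It was above 0 in 51.1% and 57.1% of dentate granule neuron-like cells, a difference of 6.00 ± 3.67 points, and after thinning in 6.84% and 9.80%, a difference of 2.96 ± 2.06 points. In microglia-like cells 3.62% and 5.36% were above 0. Outside the dentate granule neuron-like class as a whole it was above 0 in 6.52% and 9.98% of cells, with levels of 0.0950 and 0.134. The make-up of these other cells differed between the libraries, and its part in their C1ql3 values was not tested. By class, the C1ql3 ratio was above 0 in 8 of the 11 named classes and below 0 in 3. Within the class, the C1ql3 share difference exceeded counting error between cells both before and after thinning, which was a single random draw. The thinned intervals of C1ql2 and C1ql3 overlap, so they do not set the 2 genes apart. Counting error leaves out the spread between mice, which is unknown.

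The dentate granule neuron-like cells fell into 3 clusters. The main one, cluster 13 (1310 and 1166 cells), had C1ql2 at 1.14 and 1.25 and C1ql3 at 0.755 and 0.897. Cluster 25 (85 and 219 cells), in which C1ql2 was itself a leading gene, had C1ql2 at 2.01 and 2.29 and C1ql3 at 0.844 and 0.856. The small cluster 20 (52 and 64 cells) had the lowest levels of both, with C1ql2 at 0.694 and 0.778 and C1ql3 at 0.462 and 0.576. In each cluster both genes were higher in the knock-in library. Cluster 25 was a larger part of the class in the knock-in library. With each cluster given the same weight in both libraries, set by its number of cells in both together, the log2 ratio was 0.13 for C1ql2, in place of 0.22. For C1ql3 it was 0.20. Both genes were above 0 in 33.5% of wild-type and 38.5% of knock-in cells of the class, and neither was above 0 in 20.2% and 13.1%.

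**Figure D4:**
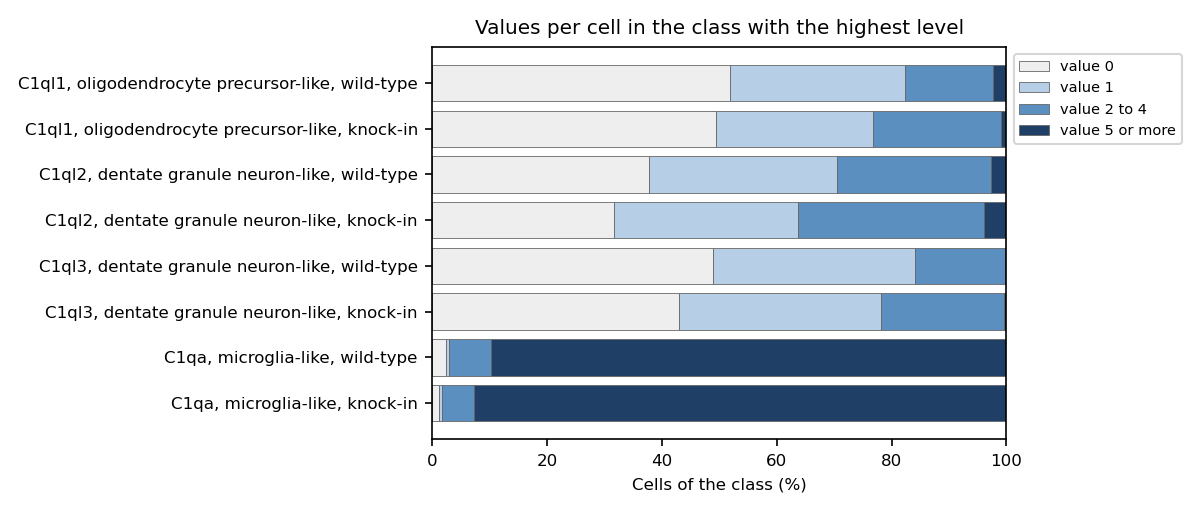
Share of cells (percent) at a value of 0, 1, 2 to 4, or 5 or more, for C1ql1, C1ql2, C1ql3 and, for comparison, C1qa, each in the class where it is highest and by library. A C1ql2 value of 2 or more is found in 29.4% of wild-type cells of its class, while 89.7% of wild-type microglia-like cells have a C1qa value of 5 or more.

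The dentate granule neuron-like class held 73.1% of all C1ql2 values in the wild-type library against 66% in the knock-in one, and 69.1% and 58.5% of all C1ql3 values, while it made up 20.4% and 16.4% of all cells. By summed values, pyramidal neuron-like cells held the next largest part of C1ql3 among the named classes, 10.4% and 17.9%, with a level of 0.124 in the wild-type library against 0.209 in the knock-in one (log2 ratio 0.46). Oligodendrocyte precursor-like cells had similar levels, 0.144 and 0.194. The pyramidal clusters differed: C1ql3 was at 0.229 and 0.292 in cluster 4, 0.128 and 0.202 in cluster 5, 0.0129 and 0.0354 in cluster 7, 0.151 and 0.284 in cluster 8, and 0.331 and 0.236 in the small cluster 37. Cluster 8 held 142 wild-type and 511 knock-in cells, so the make-up of the class differed between the libraries along with its C1ql3 level, and its part in that level was not tested.

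C1ql2 was most alike over the 33 clusters to Trpc6 (r = 0.815 and 0.793), the predicted gene AC171111.1 (0.759 and 0.734) and Lct (0.733 and 0.775). C1ql3 was most alike to Slc26a10 (0.768 and 0.789), the calcium channel gene Cacna1h (0.756 and 0.776) and Arsj (0.747 and 0.769). The correlation of C1ql2 with C1ql3 was 0.675 and 0.662. Trpc6 was also 1 of the markers used to name the dentate granule class.

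**Figure D5:**
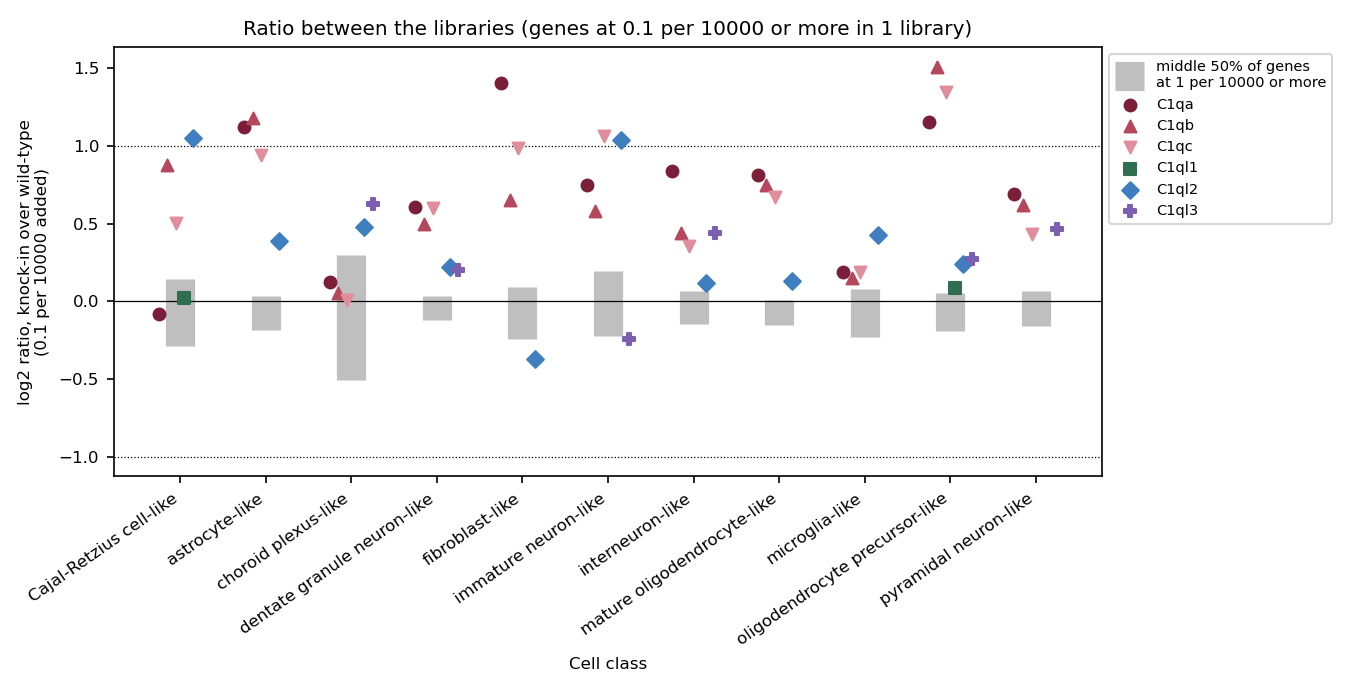
Log2 ratio of knock-in over wild-type level (0.1 per 10000 added) of the C1q chains and C1q-like genes in each class, drawn where the level reached 0.1 per 10000 in 1 library. Grey bars give the middle 50% of genes at 1 per 10000 or more that met the size rule's minimum share of cells. Dotted lines lie at -1 and 1. C1q points outside microglia-like cells reach 1.51 (C1qb in oligodendrocyte precursor-like cells), while those in microglia-like cells lie between 0.15 and 0.19.

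Most other genes of the cascade had low levels. Of 27 genes of complement initiation and cascade in the table, 5 reached 0.5 per 10000 in any class: the 3 C1q chains, Colec12, a collectin with a scavenger role, at 8.57 and 8.64 in fibroblast-like cells, and C4b, which follows C1q in the classical pathway, at 0.635 and 0.425 in astrocyte-like cells. None passed the size rule in any class. Of 7 C1q-like and cerebellin ligands in the table, only the 3 C1q-like genes reached 0.5 per 10000.

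Among 13 complement receptor genes, 7 reached 0.5 per 10000 in microglia-like cells in 1 library or both, and 0 of them passed the size rule. Their median log2 ratio was 0.26, but C3ar1 and C5ar1 reached that level through the knock-in library alone. Itgam and Itgb2, which form complement receptor 3, had 4.04 and 4.16, and 0.814 and 1.04. The anaphylatoxin receptor genes C3ar1 and C5ar1 had 0.485 and 0.604, and 0.369 and 0.639.

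Of 8 complement regulators at 0.5 per 10000 in that class, 2 had a ratio above 0 and 6 below 0 (median -0.23). In choroid plexus-like cells 8 of 8 were above 0, with a median of 0.35 beside -0.18 for all genes at that level, and Susd4 reached it through the knock-in library alone. That class joined cluster 29 (40 wild-type and 21 knock-in cells) and cluster 32 (62 and 70 cells). Ribosomal protein transcripts made up 0.297% of the values in cluster 29 and 3.92% in cluster 32. The make-up of the class thus differed between the libraries, and its part in these ratios was not tested. The 6 with a ratio below 0 in microglia-like cells included Csmd3 (34.5 and 28.2) and Csmd1 (12.1 and 8.18), large genes that neurons express at high level. The 9 receptors and partners of C1q-like ligands at that level in microglia-like cells, neuronal genes for the most part, all had a ratio below 0 (median -0.37), of which Adgrb1 reached that level through the wild-type library alone. Among the regulators that carry a GPI anchor, Cd59a had 1.24 and 1.69 in choroid plexus-like cells, where Cd55 had 0.324 and 0.232. These are transcript levels and say nothing of the anchored protein at the cell surface.

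In dentate granule neuron-like cells, 12 of 14 genes for receptors and partners of C1q-like ligands reached 0.5 per 10000. Of these, 5 had a ratio above 0 and 7 below 0 (median -0.03), and 0 of 12 passed the size rule. Adgrb3, the adhesion receptor, had 18.9 in both libraries. The kainate receptor subunit genes Grik2 and Grik4, whose proteins are held at mossy fibre synapses by C1ql2 and C1ql3, had 15.4 and 13.8, and 3.78 and 4.00. Nrxn3, which encodes a presynaptic neurexin, had 10.9 and 10.4. In oligodendrocyte precursor-like cells, where C1ql1 was highest, Adgrb3 had 22.1 and 21.5.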

How the data were processed

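Hippocampal cells of 1 pooled wild-type and 1 pooled knock-in library were analysed. The authors deposited 1 table of gene symbols by cells, whose values are treated as a score: whole numbers whose narrow range of totals per cell is that of depth-corrected, not raw, counts. The submitters' processing notes name Seurat 3.0.0 and GRCm38. The aligner, the counter and any filter on cells are not given in the sources used here. Such values may include molecules that were never sequenced, so no count model was run on them and they carry no Poisson interval.

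Cells were clustered with scanpy 1.11.5 and igraph 0.11.9 under Python 3.11.15 (2000 variable genes, 30 principal components, 15 neighbours, Leiden resolution 1), which gave 38 clusters. The 7 genes, the other complement genes and the receptors (92 listed in all), and sex-linked genes, were left out of the variable genes. A cluster was named from at least 3 markers, each above 0 in 25% of its cells and 1.5-fold over the rest, and 9 clusters (1752 cells) stayed unnamed because they had too few markers, none among their leading genes, or many of another class. This naming rule was settled after the clusters had been seen, including that pyramidal, dentate granule and immature neurons count as 1 lineage. Doublets were kept: Scrublet called 61 wild-type and 209 knock-in cells.

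The genes and lists were chosen with earlier results of these data known. Genes named beside the 7 are those of the lists at 0.5 per 10000 or more in a class, up to 4 per list by level or ratio, and the 3 most alike to each gene. Tmem119, Spi1, Itgb2, C3ar1, Cd59a, Cd55 and Grik4 are named in addition for their roles, and were picked after their values were seen. The values of 1 listed gene are not reported here. Intervals of single shares are exact Clopper-Pearson 95% intervals over cells, the half-width of a difference between shares combines the half-widths of both in quadrature, and the limit beside a share of 0 is 3 cells over the number of cells. All cover counting error only. Thinning draws each cell down to a total of 1000 and does not recover sequencing depth. The size rule was run on simulated Poisson values with changes larger than its limit and no library effect. Such values differ from the depth-corrected ones used here, so that run does not measure how the rule fares on them. Alternatives to the clustering, cell filter, weighting, pseudocount, level limit and thinning were run.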

Additional observations from a re-analysis of the deposited data

How the results depend on the processing

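Of 147 values recomputed under 13 alternative settings, 138 stayed within 0.1 on the log2 scale, within the counting half-width of a share difference or within 1.5 times a count, 9 moved further and 0 changed sign beyond that (the C1ql1 share difference was -3.21 points after thinning, within its half-width). The median log2 ratio of the C1q chains in microglia-like cells stayed between 0.17 and 0.28. Lowering the level limit to 0.2 per 10000 brought the pairs past the size rule to 7 from 0. With a pseudocount of 1, the median over the other classes of the chains' median ratio was 0.18 in place of 0.68, as that pseudocount exceeds most of those levels. After thinning, the share difference of C1qb was 3.64 points and that of C1ql2 was 1.30 points. With values of 1 set to 0, the log2 ratio was 0.29 for C1ql1, 0.36 for C1ql2 and 0.40 for C1ql3. The C1q ratio was above 0 in 10 of 10 other classes, except 9 of 10 with values of 1 set to 0 and with 15 principal components. No paired analysis was possible because each genotype is 1 library and no test was made. Depth per cell is unknown, so small differences in shares, and any difference in C3, were beyond what these libraries can show.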
